A study of Mus musculus with 6 samples.

Results

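Expression of 10 marker genes of blood endothelium was measured by RNA sequencing in lymphatic endothelial cells (LECs) sorted from the mouse dura mater, the outer meningeal layer. The genes were *Plvap*, *Cd34*, *Vwf*, *Sox17*, *Emcn*, *Ackr1*, *Selp*, *Sele*, *Ly6c1* and *Aqp1*. They were chosen by name as genes used to mark blood vessels, with earlier results of these libraries known, and are 10 of the 55401 genes in the tables. Each had 1 row, and all 10 were followed in all 6 libraries. The mice were wild-type C57BL/6J males that received an adeno-associated virus of serotype 9 into the cisterna magna once, at 4 weeks of age. In AAV-VEGF-C mice the virus encoded VEGF-C, a growth factor for lymphatic vessels. In AAV-CTRL mice it encoded a soluble fragment of VEGFR-3 fused to Ig (domains 4 to 7), which does not bind VEGF-C, so both groups carried a virus and a foreign transcript and no group was left uninjected. Cells were taken as live, CD31+, Podoplanin+, LYVE-1+ and CD45- from collagenase-digested dura of the skullcap. There were 3 libraries per group, each a pool of 10 to 12 mice, and the labels number them by experiment (1 to 3). Each value is therefore a mean over pooled animals, and the spread between libraries is that between experiments.

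Blood vessels and lymphatic vessels are both lined by endothelium and share many of its genes, among them those of CD31 and VE-cadherin. Blood endothelium also carries proteins tied to blood flow and to the exchange of cells and solutes with the tissue, such as the diaphragm of fenestrae, the stored clotting factor VWF and the selectins that slow rolling leukocytes. Dural blood vessels, unlike most brain capillaries, are fenestrated in part, and PLVAP is the protein that forms the fenestral diaphragm. In a bulk library, the presence of blood endothelial cells and the transcription of these genes by LECs cannot be told apart, and neither can fewer cells of a type and less RNA per cell.

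The libraries were of very unequal depth, and this bears on every value that follows. The AAV-CTRL libraries held between 6530269 and 12399498 estimated counts, and the AAV-VEGF-C libraries between 564475 and 3261935. The smallest was AAV-VEGF-C 1, in which 3 counts, taken as the floor of detection, correspond to 5.31 CPM (counts scaled to the library total). Genes of protein families that dural cells do not use (olfactory, vomeronasal and taste receptors, keratin-associated proteins and defensins) took 135 to 260 CPM in the AAV-CTRL libraries and 2740 to 6838 CPM in the AAV-VEGF-C libraries. Counts of markers are therefore set below beside the number that its length would collect at the rate of these silent families. Markers of macrophages also separated the experiments, with a summed level of 20.1 TPM (a unit scaled for gene length and library total) in AAV-CTRL 1 and 13.9 TPM in AAV-VEGF-C 1, against 583 to 1996 TPM in the other 4 libraries.

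Among the markers, promoter sequence was at hand for 7 of 10 genes, all but *Plvap*, *Vwf* and *Sox17*. The windows ran from 250 bases before to 50 bases after the RefSeq start site on GRCm38.p6. They were searched on both strands for 3 sets of letters, which nowhere overlapped each other in the printed sequences: CNGGAAG, a core of the sites bound by ETS factors such as ERG, TATAAA, the TATA box, and ACAAAG, a core bound by SOX factors such as SOX17. The ETS letters were in the windows of 4 of the 7 genes (*Emcn*, *Cd34*, *Sele* and *Ackr1*), and in 31.9% of the 32851 RefSeq promoter windows of the mouse. The TATA letters were in 2 of 7 (*Sele* and *Ly6c1*) and in 13.6% of all windows, and the SOX letters in 2 of 7 (*Ly6c1* and *Ackr1*) and in 18.7% of all windows. A gene was counted if any of its windows held the letters, while the shares are per window. A match is a run of letters, not a shown binding site. The 250 bases before the start are printed for *Sele*, *Emcn* and *Cd34*, whose levels went together across the libraries, and for *Aqp1*, whose level did not go with theirs. Capitals mark the ETS letters or their reverse complement and the TATA letters. *Sele* is shown at chr1:164047984-164048233, *Emcn* at chr3:137340828-137341077, *Cd34* at chr1:194938571-194938820 and *Aqp1* at chr6:55336049-55336298, each on the plus strand.
Sele: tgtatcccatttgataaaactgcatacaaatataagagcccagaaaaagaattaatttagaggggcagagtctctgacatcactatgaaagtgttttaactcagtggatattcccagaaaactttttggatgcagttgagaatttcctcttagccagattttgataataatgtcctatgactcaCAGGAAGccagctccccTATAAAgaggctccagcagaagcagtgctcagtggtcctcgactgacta
Emcn: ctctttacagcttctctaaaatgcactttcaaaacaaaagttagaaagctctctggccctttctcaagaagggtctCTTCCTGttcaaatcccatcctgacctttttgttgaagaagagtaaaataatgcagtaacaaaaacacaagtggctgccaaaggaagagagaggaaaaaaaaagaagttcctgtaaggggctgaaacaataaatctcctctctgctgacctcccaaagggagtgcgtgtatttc
Cd34: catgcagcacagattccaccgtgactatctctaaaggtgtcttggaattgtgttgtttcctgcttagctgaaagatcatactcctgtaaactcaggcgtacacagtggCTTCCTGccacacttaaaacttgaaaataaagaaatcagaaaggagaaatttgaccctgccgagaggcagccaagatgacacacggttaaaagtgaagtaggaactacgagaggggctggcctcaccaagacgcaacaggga
Aqp1: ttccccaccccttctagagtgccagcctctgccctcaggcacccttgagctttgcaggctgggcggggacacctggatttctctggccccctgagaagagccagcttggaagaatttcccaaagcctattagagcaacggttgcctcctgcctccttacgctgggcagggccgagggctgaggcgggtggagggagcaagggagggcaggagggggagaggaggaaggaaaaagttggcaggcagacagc
The ETS letters begin at position -66 in *Sele*, counted from the start site, at -174 in *Emcn* and at -142 in *Cd34*. In *Sele* the TATA letters follow at -49. The RefSeq start of *Aqp1* lies 133 bases before the start of the gene in GENCODE, so the printed window does not adjoin that transcript. The RefSeq start of *Ackr1* and the more downstream start of *Ly6c1* lie inside the GENCODE gene. The SOX letters of both genes and the ETS letters of *Ackr1* therefore lie within the annotated gene. The *Aqp1* window held none of the 3 sets of letters, and neither did that of *Selp*. Yet the level of *Selp* went with *Emcn* and *Cd34* too (Pearson r of log2 CPM 0.92 and 0.93), as did that of *Ly6c1* (0.96 and 0.87). In AAV-VEGF-C 1 *Emcn*, *Selp* and *Ly6c1* had 3 counts or fewer, so these coefficients depend in part on values at the floor. Neither *Selp* nor *Ly6c1* had the ETS letters in its windows, and any link between letters and level was not tested.

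The level of the markers over all 6 libraries fell by mean TPM from *Plvap* (74.3 TPM) through *Vwf* (55.7), *Aqp1* (34.6), *Emcn* (21.5), *Cd34* (14.9), *Ly6c1* (12.0), *Selp* (7.52), *Sox17* (4.63) and *Sele* (2.41) to *Ackr1* (1.27). The ranges of neighbours overlapped in all 9 neighbouring pairs of this order. The order was the same in every library for only 2 of these pairs, *Plvap* above *Vwf* and *Sox17* above *Sele*. For scale, the level of *Ccl21a*, the chemokine that marks lymphatic endothelium, was 208 TPM on average, with the reservation that it has near-identical copies in the genome. The level of *Prox1*, the transcription factor of lymphatic fate, was 7.51 TPM on average, close to that of *Selp*.

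**Figure D1:**
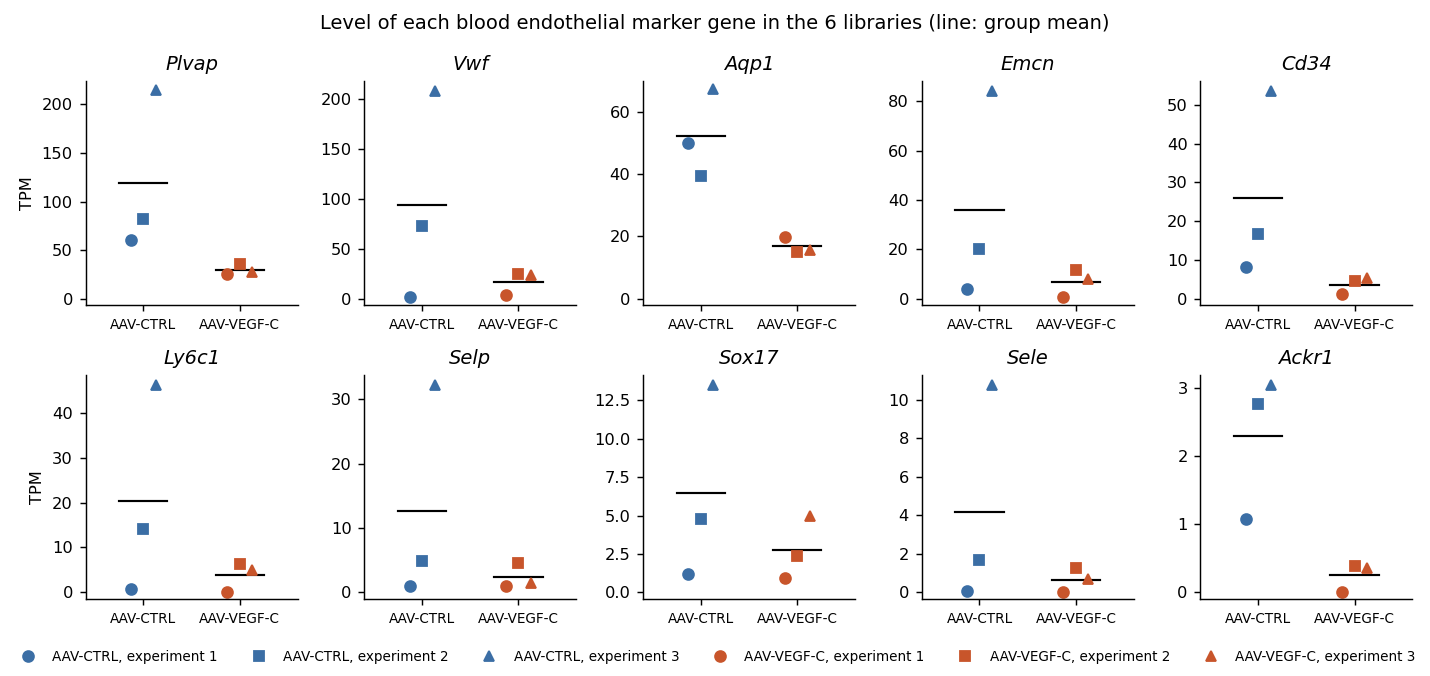
Level of the 10 blood endothelial markers in TPM (linear axis from 0) in each library of AAV-CTRL (blue) and AAV-VEGF-C (orange), with circles, squares and triangles for experiments 1, 2 and 3 and a black line at the mean of each group. AAV-CTRL 3 was the highest library in all 10 panels, and the libraries of experiment 1 lay near 0 in most panels but not in those of *Plvap* and *Aqp1*.

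Of the proteins of the vessel wall, *Plvap* (chr8:71497765-71511752, minus strand), which encodes the diaphragm protein of fenestrae and caveolae, was the most abundant marker. Its level was 60.8, 82.0 and 215 TPM in AAV-CTRL 1, 2 and 3 and 25.6, 35.9 and 27.0 TPM in AAV-VEGF-C 1, 2 and 3. All 3 AAV-VEGF-C libraries lay below all 3 AAV-CTRL libraries on this scale. The counts behind these levels were 147 to 7151, and the rate of the silent families would give *Plvap* no more than 5.79 counts in any library. On the scale used for testing, CPM after TMM scaling (a factor per library that puts most genes at the same level), the groups overlapped, at 342 ± 125 CPM for AAV-CTRL and 231 ± 104 CPM in AAV-VEGF-C (SD, n = 3). The log2 fold change was -0.57 (SE 0.43, adjusted p = 0.427, edgeR quasi-likelihood test with Benjamini-Hochberg adjustment), within the spread between libraries.

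*Aqp1* (chr6:55336432-55348555, plus strand) encodes a water channel of endothelium, red cells and some epithelia. Its level was 50.2, 39.3 and 67.4 TPM in AAV-CTRL 1, 2 and 3 and 20.0, 15.1 and 15.8 TPM in AAV-VEGF-C 1, 2 and 3. The counts were 144 to 2819, beside at most 7.25 at the silent families' rate. It was the most even of the markers within the AAV-CTRL group, its highest library being 1.71 times its lowest, and the groups did not overlap in TPM. After TMM scaling they overlapped, since AAV-VEGF-C 1 was the highest library of all at 333 CPM and the other 5 lay between 90.3 and 257 CPM. The log2 fold change was -0.24 (SE 0.51, edgeR adjusted p = 0.811), and its sign turned under 5 of the other settings.

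The sialomucins came next. *Emcn* (chr3:137341067-137432185, plus strand) encodes endomucin, a glycoprotein of venous and capillary endothelium, and *Cd34* (chr1:194938819-194961279, plus strand) a related surface protein that blood progenitors and some fibroblasts also carry. *Emcn* was at 4.12, 20.2 and 84.1 TPM in AAV-CTRL 1, 2 and 3 and at 0.771, 11.7 and 8.17 TPM in AAV-VEGF-C 1, 2 and 3, so the groups overlapped and experiment 1 was the lowest library of both. In AAV-VEGF-C 1 the level of *Emcn* rested on 2 counts, where the silent families' rate would give 1.27. *Cd34* was at 8.07, 16.6 and 53.6 TPM in the AAV-CTRL libraries and at 1.11, 4.52 and 5.25 TPM in the AAV-VEGF-C libraries, with no overlap in TPM but with overlap after TMM scaling. The 6 counts of *Cd34* in AAV-VEGF-C 1 stand beside 1.97 at the silent families' rate. *Cd34* had the lowest adjusted p of the markers (log2 fold change -1.25, SE 0.62, edgeR adjusted p = 0.230), and *Emcn* gave -1.21 (SE 0.93, edgeR adjusted p = 0.441). With 1 library left out, *Emcn* ranged from -2.08 without AAV-VEGF-C 2 to -0.09 without AAV-CTRL 3, and *Cd34* from -1.72 without AAV-CTRL 1 to -0.57 without AAV-CTRL 3. In limma on log2(TPM + 1) *Cd34* stood at the threshold without passing it (log2 fold change -2.30, adjusted p = 0.05003).

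*Vwf* (chr6:125546774-125686679, plus strand) encodes von Willebrand factor, which endothelium and megakaryocytes store and release, and it spread over the libraries far more than *Plvap*. Its level was 1.35, 73.2 and 208 TPM in AAV-CTRL 1, 2 and 3 and 3.39, 24.7 and 23.4 TPM in AAV-VEGF-C 1, 2 and 3. The lowest value of all was a control library, AAV-CTRL 1, with 87 counts where AAV-CTRL 3 had 22779, a 154-fold range in TPM within 1 group. In AAV-VEGF-C 1 the 40 counts of *Vwf* stand beside 6.77 that its length would collect at the silent families' rate. The log2 fold change was -1.49 (SE 1.23, edgeR adjusted p = 0.472), the lowest of the tested markers, and its SE was second only to that of *Sele*. With the experiment number as a block it was -0.39 (adjusted p = 0.793), and with 1 library left out it ranged from -2.13 (without AAV-VEGF-C 2) to -0.52 (without AAV-CTRL 3). *Pf4*, a gene of the platelet list, was also low in experiment 1, at 0.717 TPM in AAV-CTRL 1 and 6.94 TPM in AAV-VEGF-C 1 and at 57.1 to 168 TPM in the rest. The macrophage gene *Csf1r* had the same split, at 1.97 and 5.92 TPM in experiment 1 and at 130 to 450 TPM in the rest. The other platelet genes were not low there, and summed to 6.49, 4.79 and 4.87 TPM in AAV-CTRL 1, 2 and 3 and to 6.05, 8.96 and 10.001 TPM in AAV-VEGF-C 1, 2 and 3. The part of platelets in the level of *Vwf* was not tested.

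The adhesion molecules were low and uneven. *Selp* (chr1:164115264-164150026, plus strand) encodes P-selectin, stored with VWF and also carried by platelets. It was at 0.934, 4.81 and 32.2 TPM in AAV-CTRL 1, 2 and 3 and at 0.997, 4.65 and 1.52 TPM in AAV-VEGF-C 1, 2 and 3. In experiments 1 and 2 the levels of both groups lay side by side, and the difference between the group means rested on AAV-CTRL 3. The counts of *Selp* in AAV-VEGF-C 1 and 3 were 3 and 22, beside 2.62 and 6.08 at the silent families' rate. *Sele* (chr1:164048234-164057677, plus strand), next to *Selp* on the same chromosome, encodes E-selectin, which activated endothelium displays. It was at 0.065, 1.66 and 10.7 TPM in the AAV-CTRL libraries and at 0, 1.29 and 0.674 TPM in the AAV-VEGF-C libraries. The counts of *Sele* in AAV-VEGF-C 1, 2 and 3 were 0, 13 and 13, and its length would collect 3.10, 4.12 and 7.19 at the silent families' rate. The log2 fold changes were -1.23 for *Selp* (SE 0.97, edgeR adjusted p = 0.453) and -1.41 for *Sele* (SE 1.32, edgeR adjusted p = 0.527). Without AAV-CTRL 3 they were -0.11 and 0.29, and without AAV-VEGF-C 2 they were -2.56 and -2.36.

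*Ackr1* (chr1:173331886-173333750, minus strand), the gene of an atypical chemokine receptor of venules and red cells, was the weakest marker. Its level was 1.07, 2.76 and 3.04 TPM in AAV-CTRL 1, 2 and 3, from 13, 37.9 and 50.04 estimated counts. In AAV-VEGF-C 1, 2 and 3 it was 0, 0.393 and 0.355 TPM, from 0, 1.56 and 2.84 counts, where the silent families' rate would give 1.23, 1.63 and 2.84. The level of *Ackr1* in the AAV-VEGF-C libraries was thus at or below that of genes that dural cells do not use, and these libraries were at or under the floor of 3 counts. It was the only marker lower in all AAV-VEGF-C libraries in CPM as well as TPM. Of all tested genes, 36.4% were lower with no overlap in TPM and 17.6% in TMM-scaled CPM. *Ackr1* is not among those tested genes, as it alone of the markers did not pass the filter on low counts, so the main test gave it no p. Without the filter its log2 fold change was -2.07 (SE 1.04, edgeR adjusted p = 0.114), a value that depends on the prior count. *Ackr1* overlaps *Cadm3* on the same strand, and 20.4% of the 50-base windows of its transcripts occur in *Cadm3* as well, so its estimated counts could be split with that gene.

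*Sox17* (chr1:4490931-4497354, minus strand) encodes a transcription factor of arterial endothelium. It was at 1.21, 4.76 and 13.5 TPM in AAV-CTRL 1, 2 and 3 and at 0.944, 2.35 and 4.98 TPM in AAV-VEGF-C 1, 2 and 3, and the groups overlapped. Its 5 counts in AAV-VEGF-C 1 stand beside 2.18 at the silent families' rate. After TMM scaling the means were nearly level, at 14.2 ± 9.78 CPM in AAV-CTRL and 13.7 ± 2.66 CPM for AAV-VEGF-C (SD, n = 3). The log2 fold change was -0.02 (SE 0.59, edgeR adjusted p = 0.989), and 15.0% of its 50-base windows lie in the antisense gene *Gm37587* too.

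*Ly6c1* (chr15:75044018-75048830, minus strand) encodes a small GPI-anchored surface protein of mouse capillary endothelium. Its level was 0.692, 14.1 and 46.1 TPM in AAV-CTRL 1, 2 and 3 and 0, 6.31 and 5.05 TPM in AAV-VEGF-C 1, 2 and 3. Both libraries of experiment 1 were at the floor of 3 counts or under it, in a group with 421 counts in AAV-CTRL 3. In AAV-VEGF-C 2 and 3 it had 12.9 and 23 counts, beside 0.848 and 1.48 at the silent families' rate. The log2 fold change was -1.16 (SE 1.18, edgeR adjusted p = 0.564), and -0.17 without AAV-CTRL 3. *Ly6c2*, its close relative, which monocytes express, shares 21.5% of the 50-base windows of *Ly6c1* transcripts, so reads can be divided between the pair. *Ly6c2* had the same order of libraries as *Ly6c1* in AAV-CTRL but not in AAV-VEGF-C. It was at 0.035, 1.71 and 2.81 TPM in the AAV-CTRL libraries and at 1.49, 1.38 and 2.36 TPM in the AAV-VEGF-C libraries, which are 1.01 to 20.7 counts. Its log2 fold change was 3.23 (SE 0.90, edgeR adjusted p = 0.060), which did not pass 0.05, and the silent families' rate would give 1.82 of its 9 counts in AAV-VEGF-C 1 and 4.22 of its 15 counts in AAV-VEGF-C 3. Each gene has 2 RefSeq starts, and the 250 bases before the one farther upstream are printed to show how alike the pair is and where they part, for *Ly6c1* at chr15:75048838-75049087 and for *Ly6c2* at chr15:75111972-75112221, both on the minus strand.
Ly6c1: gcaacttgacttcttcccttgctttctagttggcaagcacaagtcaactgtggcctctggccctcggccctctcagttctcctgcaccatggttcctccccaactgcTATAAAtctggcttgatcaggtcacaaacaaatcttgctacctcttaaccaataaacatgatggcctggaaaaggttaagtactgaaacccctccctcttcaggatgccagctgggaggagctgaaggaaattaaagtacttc
Ly6c2: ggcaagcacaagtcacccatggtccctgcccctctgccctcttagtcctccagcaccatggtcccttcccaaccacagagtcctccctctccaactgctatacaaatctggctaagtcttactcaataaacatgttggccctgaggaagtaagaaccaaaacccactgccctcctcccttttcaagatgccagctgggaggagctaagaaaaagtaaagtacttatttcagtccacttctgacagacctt
The capitals in *Ly6c1* mark the TATA letters, which begin at -143 from that start, well before the usual place of a TATA box. Those letters were not found in the *Ly6c2* windows. In the remaining members of the Ly6 cluster, *Ly6a* (Sca-1, an antigen of mouse endothelium and progenitors) was at 3.69, 14.0 and 54.9 TPM in the AAV-CTRL libraries and at 0.568, 4.97 and 3.58 TPM in the AAV-VEGF-C libraries, and did not pass the test (log2 fold change -1.90, SE 0.78, edgeR adjusted p = 0.162).

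In the comparison of AAV-VEGF-C with AAV-CTRL over all genes, none of the 9 tested markers was called lower and none higher at an adjusted p under 0.05 (edgeR, 6 libraries). At an unadjusted p under 0.05 the count was also 0. Among all 17459 tested genes 0.659% were called lower and 10.5% higher at the adjusted p, and 1590 and 3315 genes passed the unadjusted p. All 9 fitted changes were below 0, with a median log2 fold change of -1.21, beside a median of -0.0037 for all tested genes, of which 8768 were below 0. Genes of moderate and high level sat lower than that. For the 7234 tested genes whose mean TPM was 5 or more, the median was -0.41 and 5495 were below 0. In TPM, 3 of the 9 tested markers (*Plvap*, *Cd34* and *Aqp1*) had their highest AAV-VEGF-C library below their lowest AAV-CTRL library, against 36.4% of all tested genes. In TMM-scaled CPM 0 of 9 did, against 17.6% of all tested genes. The share of markers without overlap was thus close to the background in TPM and below it in CPM. DESeq2 and limma on log2(TPM + 1) called no marker either (unadjusted p under 0.05 for 0 and for 3 markers). The 3 of 9 in limma were lower and stood beside 4850 lower of 17459 genes at that unadjusted p. The same edgeR fit with no filter on low counts called 5 of 10 lower, against 2.64% of 44563 genes. With 1 library left out of the edgeR fit, 6 of 10 markers were lower at the unadjusted p without AAV-CTRL 1, against 1128 of 18198 genes. Without AAV-VEGF-C 1 it was 2 of 10, against 1850 of 20106 genes, and 0 without any other library.

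**Figure D2:**
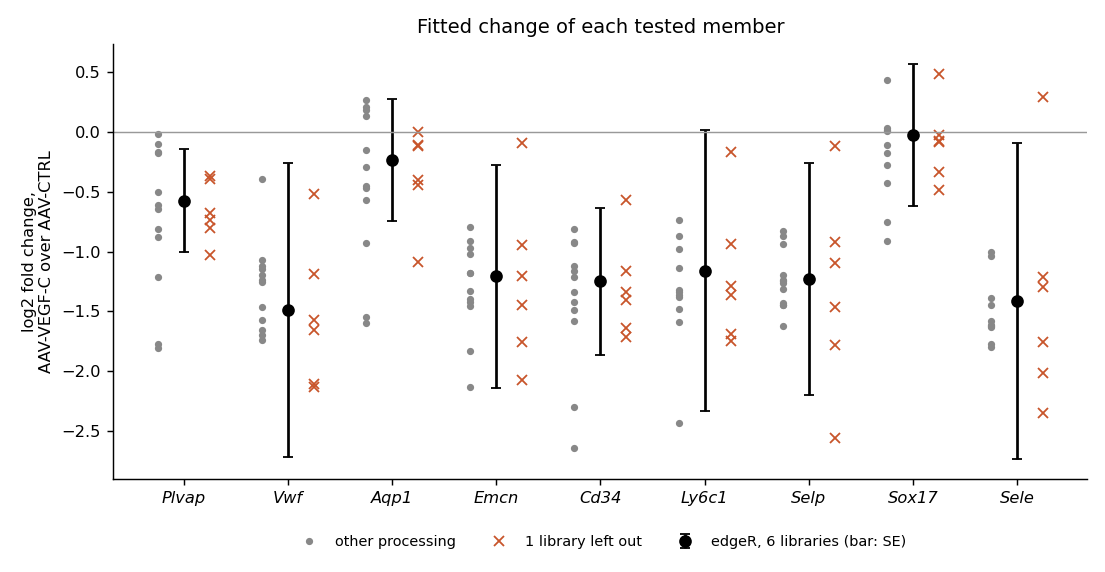
Log2 fold change of AAV-VEGF-C over AAV-CTRL for the 9 tested markers, with the edgeR value over 6 libraries and its SE in black, the other scalings, filters, tests and pairings in grey and fits with 1 library left out as orange crosses. The black bars of *Aqp1*, *Sox17* and *Ly6c1* reach across 0, and the uppermost cross of *Sele*, without AAV-CTRL 3, lies above 0 at 0.29.

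Since the labels pair the libraries by experiment, the ratio of the AAV-VEGF-C to the AAV-CTRL library was taken within each. These ratios compare 2 libraries, with a 95% exact interval that covers counting error only. In experiment 3 all 10 markers were lower in the AAV-VEGF-C library, with log2 ratios of TMM-scaled CPM from -3.57 (*Selp*, -4.25 to -2.97) to -0.52 (*Sox17*, -0.95 to -0.12). In experiment 2 the ratios lay near 0 for *Emcn* (0.10, -0.34 to 0.53), *Selp* (0.27, -0.24 to 0.75) and *Sele* (0.36, -0.63 to 1.25), whose intervals held 0. They were below 0 for *Vwf* (-0.73, -0.86 to -0.61), *Aqp1* (-0.63, -0.88 to -0.39), *Cd34* (-0.61, -1.12 to -0.14) and *Plvap* (-0.38, -0.56 to -0.21). *Ackr1* (-1.75, -4.85 to 0.20), *Ly6c1* (-0.43, -1.39 to 0.41) and *Sox17* (-0.16, -0.96 to 0.57) were also below 0, with intervals that held 0. In experiment 1 the direction of *Plvap* and *Aqp1* depended on the scaling, and in TMM-scaled CPM it was the opposite. *Vwf* was higher in the AAV-VEGF-C library (2.73, 2.15 to 3.28), and so were *Plvap* (0.43, 0.18 to 0.68) and *Aqp1* (0.37, 0.12 to 0.62). The intervals held 0 for *Cd34* (-0.23, -1.71 to 0.95), *Emcn* (-0.64, -3.73 to 1.29), *Selp* (0.43, -1.92 to 2.11) and *Sox17* (1.41, -0.32 to 2.81). *Sele* and *Ly6c1* were at the floor in both libraries of experiment 1, and for *Ackr1*, with 13 counts against 0, the upper end of the interval was 2.24, so that no difference was detectable at this depth. *Ackr1* gave -1.97 (-4.30 to -0.34) in experiment 3, from 50 counts against 3. In TMM-scaled CPM none of *Plvap*, *Vwf* and *Aqp1* kept 1 direction over the 3 experiments. *Cd34* and *Ackr1* were lower in the AAV-VEGF-C library of all 3 on that scale. Both intervals held 0 in experiment 1, and that of *Ackr1* held 0 in experiment 2 too. In TPM *Plvap* and *Aqp1* were lower in the AAV-VEGF-C library of all 3 and *Vwf* was lower in experiments 2 and 3.

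**Figure D3:**
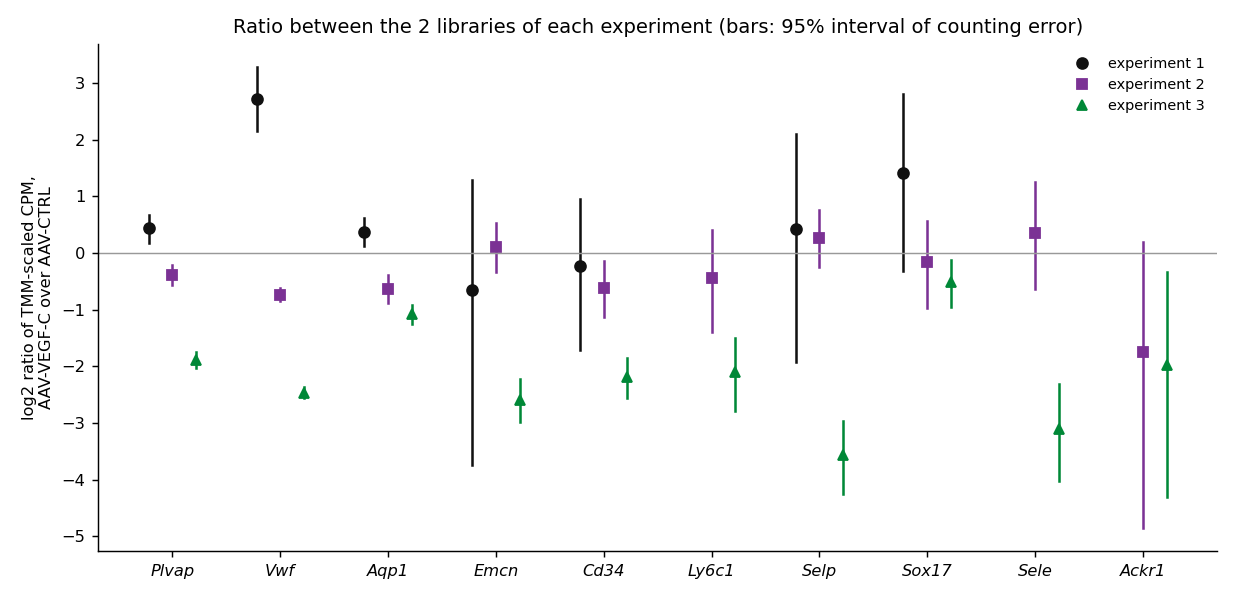
Log2 ratio of TMM-scaled CPM between the AAV-VEGF-C and AAV-CTRL library of experiments 1 (black circles), 2 (purple squares) and 3 (green triangles) for each marker, with 95% exact intervals of counting error. Every green triangle lies below 0, while the black circles of *Vwf*, *Plvap* and *Aqp1* lie above it (in TPM, *Plvap* and *Aqp1* were lower in AAV-VEGF-C 1). The black circles of *Selp* and *Sox17* lie above 0 and those of *Cd34* and *Emcn* below it, all with intervals that hold 0.

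AAV-CTRL 3, the deepest library, therefore weighed heavily on the median group difference. It held the highest TPM of every marker, from 67.4 for *Aqp1* and 3.04 for *Ackr1* up to 215 for *Plvap*. Without it, the median log2 fold change of the 9 markers was -0.17 in place of -1.21, 7 of 9 were below 0, and the lowest adjusted p was 0.547 (edgeR). With experiments 2 and 3 alone, which leaves out the smallest library and its partner, the median was -1.48, all 9 were below 0, and the lowest adjusted p was 0.057 (*Cd34*), so again no marker was called. At an unadjusted p under 0.05, 7 of 10 markers were lower in that edgeR fit, against 1554 of 19222 tested genes. Pan-endothelial genes had the same order of libraries in AAV-CTRL, with a summed level of 179, 284 and 779 TPM in libraries 1, 2 and 3.

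The libraries of experiment 1 stood apart from the others for most markers. In both groups the library of experiment 1 was the lowest of its 3 in TMM-scaled CPM for 6 of the 9 tested markers (*Sox17*, *Sele*, *Cd34*, *Emcn*, *Vwf* and *Ly6c1*), against 19.2% of all tested genes. In a test of the experiment number with the virus as the other term, added after the data had been seen, 1 of the 9 was called, against 2.35% of all tested genes. This was *Ly6c1* (edgeR adjusted p = 0.035), with 3.08 and 0 counts in AAV-CTRL 1 and AAV-VEGF-C 1. Its fitted fold depends on the prior count and is not given, and the same holds for *Sele* (2 and 0 counts, adjusted p = 0.104). *Emcn* (2.94 higher on the log2 scale in experiment 2 than in experiment 1 and 3.28 higher in experiment 3, adjusted p = 0.113) and *Vwf* (3.51 and 4.07, adjusted p = 0.267) did not pass. *Plvap* (-0.28 and -0.14, adjusted p = 0.989) had the smallest differences, and *Aqp1* (-1.11 and -1.16, adjusted p = 0.355) pointed the other way without passing.

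The make-up of the marker group, which does not depend on the scaling of a library, showed the same split. *Plvap* and *Aqp1* together made up 86.4% of the summed TPM of the 10 markers in AAV-CTRL 1, and 86.3% of it in AAV-VEGF-C 1. In the other 4 libraries they made up 38.4% to 47.7%. The level of *Vwf* relative to that of *Plvap* was 0.022 in AAV-CTRL 1 and reached 0.133 in AAV-VEGF-C 1, but 0.893 and 0.970 in AAV-CTRL 2 and 3 and 0.689 and 0.869 in AAV-VEGF-C 2 and 3. Within experiment 2 the share of *Plvap* and *Aqp1* was 46.8% for AAV-CTRL and 47.7% for AAV-VEGF-C, and within experiment 3 it was 38.4% and 46.4%. The lists of leukocyte and macrophage markers moved with the experiment too, as did *Pf4* but not the other platelet genes. The leukocyte list was at 5.59 and 5.22 TPM in the libraries of experiment 1 and at 139 to 409 TPM in the rest, although CD45- cells had been sorted. Its leading gene *Laptm5* was at 0.851 and 0.284 TPM in experiment 1, and *Csf1r*, which leads the macrophage list, at 1.97 and 5.92 TPM. The part of these cells in the levels of the markers was not tested.

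**Figure D4:**
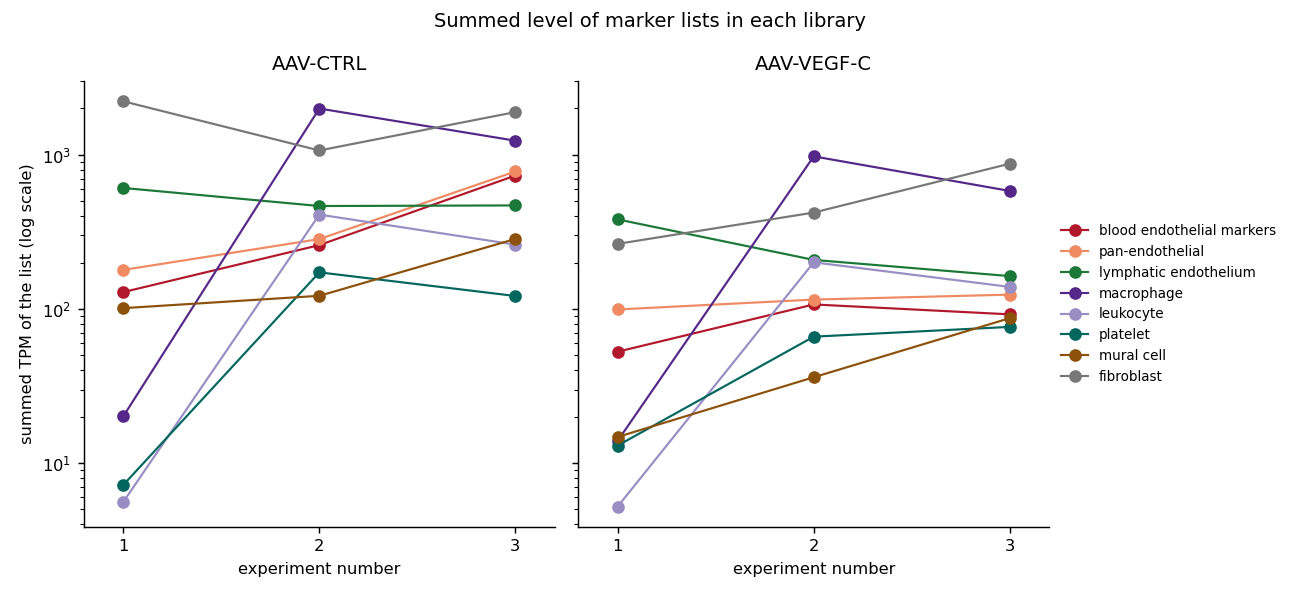
Summed TPM (log axis) of marker lists in each library by experiment number, AAV-CTRL on the left and AAV-VEGF-C on the right. Lines only join the points of a list. Macrophage and leukocyte lists, and the platelet list through its gene *Pf4* alone, are far lower in experiment 1 than in experiments 2 and 3 in both groups, while the blood endothelial markers lie between 129 and 733 TPM for AAV-CTRL and between 52.8 and 107 TPM for AAV-VEGF-C.

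Across the 6 libraries, log2 CPM of *Emcn* and *Sele* went together (Pearson r = 0.99), as did *Sele* and *Ly6c1* (r = 0.99), *Emcn* and *Cd34* (r = 0.95) and *Vwf* and *Sox17* (r = 0.94). *Aqp1* ran against most of them, with r = -0.66 to *Ly6c1* and -0.59 to *Sele*, and went with *Plvap* (r = 0.68). These coefficients describe 6 libraries that share their depth and experiment, with no test. *Sele* had 2 and 0 counts in AAV-CTRL 1 and AAV-VEGF-C 1, *Ly6c1* had 3.08 and 0, and *Emcn* had 2 in AAV-VEGF-C 1. Their values there depend on the prior count (set at 2) added before taking log2. Of 3851 genes whose mean TPM was 5 or more and whose counts were 10 or more in every library, those most like *Plvap*, the marker with the highest mean TPM, were *Xiap* (r = 0.99), *Adgrf5* (0.98), *Rgs16* (0.98), *Setd3* (0.97) and *Phactr2* (0.97). *Adgrf5* encodes an adhesion receptor of endothelium and lung epithelium, *Rgs16* a regulator of G protein signaling and *Xiap* an inhibitor of caspases.

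The sum of the 10 markers was 129, 259 and 733 TPM in AAV-CTRL 1, 2 and 3 and 52.8, 107 and 92.2 TPM in AAV-VEGF-C 1, 2 and 3. Set against the summed level of 11 lymphatic genes (among them *Prox1*, *Flt4*, *Lyve1* and *Ccl21a*), this was a ratio of 0.211, 0.558 and 1.56 for AAV-CTRL and of 0.139, 0.514 and 0.565 in AAV-VEGF-C. The ratio was lower in the AAV-VEGF-C library of each experiment, by little in experiment 2, while the groups overlapped. On the log2 scale the group means differed by -0.73, less than the SD of the AAV-CTRL libraries (1.44). With 1 library left out the difference was -1.45 without AAV-CTRL 1, -0.75 without AAV-CTRL 2, -0.0020 without AAV-CTRL 3, -0.08 without AAV-VEGF-C 1, -1.02 without AAV-VEGF-C 2 and -1.09 without AAV-VEGF-C 3. Set against the pan-endothelial list it was -0.25, and there the ratio of experiment 2 was higher in AAV-VEGF-C (0.930 against 0.914). *Plvap* and *Aqp1* were detected in every library of cells sorted as LECs, with no fewer than 144 counts. The lymphatic list itself summed to 465 to 609 TPM in AAV-CTRL libraries and 163 to 381 TPM in AAV-VEGF-C libraries, with no overlap, and none of its 11 tested genes was called. In TPM, AAV-VEGF-C lay below AAV-CTRL with no overlap for 36.4% of all tested genes. The fitted changes of the lymphatic list mostly pointed the other way, with a median log2 fold change of 0.35 and 3 of 11 genes below 0.

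Of the wider blood endothelial programme, 4 lists of 33 genes were followed in the same fit. They were written with earlier results known. Of the 32 tested genes 2 were called lower and 0 higher, against 0.659% and 10.5% of all tested genes. The fitted change was below 0 for 25 of the 32, with a median of -0.64, beside 8768 of 17459 tested genes and 5495 of the 7234 with a mean TPM of 5 or more. Both calls were in the capillary and barrier list. *Itm2a*, which encodes a membrane protein, was at 44.7, 39.5 and 93.0 TPM in AAV-CTRL 1, 2 and 3 and at 6.46, 8.11 and 17.2 TPM in AAV-VEGF-C 1, 2 and 3, with no overlap (log2 fold change -1.49, SE 0.33, edgeR adjusted p = 0.029). *Abcb1a*, the drug efflux pump of the blood-brain barrier, was at 11.5, 15.4 and 33.8 TPM and at 2.35, 5.68 and 7.20 TPM in the same order (log2 fold change -1.16, SE 0.31, edgeR adjusted p = 0.0499). No gene of the 4 lists was called when any 1 library other than AAV-CTRL 1 was left out. The mural cell list, which marks pericytes and smooth muscle around blood vessels, lay between 101 and 284 TPM in AAV-CTRL libraries and between 14.8 and 87.1 TPM in AAV-VEGF-C libraries, and none of its 9 genes was called (its leading gene *Pdgfrb* was at -1.05 on the log2 scale, SE 0.38, edgeR adjusted p = 0.122). The sum of the lymphatic list was also lower in TPM with no overlap, as were 36.4% of all tested genes.

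The other blood endothelial lists had no call. The arterial list (median log2 fold change -0.08 over 7 genes) was led by *Efnb2*, the arterial ephrin, at 2.68, 5.94 and 17.2 TPM in the AAV-CTRL libraries and 1.80, 4.03 and 6.20 TPM in the AAV-VEGF-C libraries. The venous and activated list (median -0.52 over 6 genes) was led by *Icam1*, an adhesion molecule for leukocytes, at 41.3, 70.1 and 93.4 TPM and 6.93, 41.3 and 35.8 TPM. The receptor and surface list (median -1.01 over 8 tested genes) was led by *Nrp1*, a co-receptor of VEGF-A, at 36.7, 57.9 and 102 TPM and 5.15, 30.0 and 24.6 TPM. For all 3 leading genes the lowest AAV-VEGF-C value was that of experiment 1. The pan-endothelial list, led by *Egfl7*, had a median of -0.42 with all 13 genes below 0 and none called.

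Markers of other cells the sort could hold gave few calls. Of the 7 tested fibroblast genes 2 were called lower, *Dcn* (decorin, log2 fold change -1.69, SE 0.37, edgeR adjusted p = 0.029) and *Ogn* (osteoglycin, log2 fold change -1.85, SE 0.42, edgeR adjusted p = 0.031). Of all tested genes 0.659% were called lower. The summed level of the fibroblast list was 1066 to 2223 TPM in AAV-CTRL libraries and 264 to 875 TPM in AAV-VEGF-C libraries, so markers of another dural cell were lower in the same libraries as the blood endothelial ones. Such a fall in TPM was not particular to these cells. The sum of the lymphatic list was lower too, and AAV-VEGF-C lay below AAV-CTRL with no overlap for 36.4% of all tested genes. *Col1a1*, a collagen gene and the highest of the list, was at 433 to 910 TPM and at 109 to 391 TPM and was not called (adjusted p = 0.506). Of the 5 tested platelet genes 3 were called higher (*Gp6*, *Itga2b* and *Treml1*), all of low level, and of the 4 tested Schwann cell genes 1 (*Sox10*). Of all tested genes 10.5% were called higher. These 1835 higher calls became 11 after subtraction of the silent families' rate. No gene of the red cell, leukocyte, macrophage or Ly6 lists was called. The highest of the Schwann, red cell and Ly6 lists were *Mbp* (log2 fold change 0.83, adjusted p = 0.540), *Hba-a2* (-0.81, adjusted p = 0.671), which has a near-identical copy, and *Ly6e* (-0.75, adjusted p = 0.368). The part of these cells in the levels of the blood endothelial markers was not tested.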

How the data were processed

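Bulk RNA sequencing of 6 libraries of sorted dural LECs was analysed, 3 per group, with groups taken from the labels. As deposited, the values were estimated counts for each gene without scaling, and TPM, which the authors' pipeline scaled for gene length and library total. The submitters' processing notes name FastQC, Trimmomatic, DRAGEN, Picard and the build mm10. Use of strand or molecular identifiers in counting is not given in the sources used here, so overlapping and antisense genes are uncertain. Of the identifiers, 98.1% equal those of GENCODE M21 (GRCm38), which gave positions. Promoters are from RefSeq (GRCm38.p6).

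Counts were rounded, filtered by filterByExpr, scaled by TMM and tested over all genes with edgeR 4.0.16 (quasi-likelihood, Benjamini-Hochberg, 0.05) in R 4.3.3, after a run on simulated data. TPM served for levels. Libraries held 564475 to 12399498 counts, and 3 counts were the floor. DESeq2 1.42.0, the study's tool, and limma 3.58.1 on log2(TPM + 1) or log2(TPM + 0.1) were alternatives, with other scalings, filters, depth, background, a replicate block and leaving out each library. Experiments 2 and 3 alone, the test of the experiment number and the lymphatic list without *Ccl21a* were added after seeing the data. The labels tie replicate numbers to experiments, and the libraries were paired by these labels. Across genes, the deviations from the group mean correlated between libraries of one number at 0.37, 0.28 and 0.15. AAV-CTRL 3 correlated more with AAV-VEGF-C 2 (0.22) than with AAV-VEGF-C 3 (0.15). AAV-CTRL 1 was at -0.40 and -0.17 to AAV-VEGF-C 2 and 3. The correlations therefore set experiment 1 apart but do not show how experiments 2 and 3 pair.

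The markers, lists and rule were chosen with earlier results of these data known. All 10 markers are named. List genes are named if they have the highest mean TPM of their list, if called with a mean TPM of at least 5, or if they share reads with a marker. The 5 genes most like the marker of highest mean TPM are named too. *Prox1*, *Ly6a*, *Gp6*, *Itga2b*, *Treml1* and *Sox10* were named after their values were seen.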

Additional observations from a re-analysis of the deposited data

How the results depend on the processing

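Of 157 refitted changes of single markers, 141 kept their direction and side of 0.05, 5 passed 0.05 and 11 turned. With no filter on low counts 5 of 10 markers were called lower, against 2.64% of 44563 genes (*Vwf*, *Cd34*, *Emcn*, *Selp* and *Sele*, lowest adjusted p = 0.0045). The log2 fold change of *Sox17* turned to 0.012 with DESeq2 size factors, 0.43 with scaling on the 2000 most abundant genes, 0.016 after background subtraction, 0.033 with the replicate block and 0.49 without AAV-CTRL 3 (-0.49 to 0.49 with 1 library left out). That of *Aqp1* turned to 0.27 with the 2000 most abundant genes, 0.21 with genes of a mean TPM of at least 5, 0.13 with counts drawn down to the smallest library, 0.19 after background subtraction and 0.0037 without AAV-VEGF-C 3 (-1.09 to 0.0037 with 1 library left out), and that of *Sele* to 0.29 without AAV-CTRL 3 (-2.36 to 0.29). The cause was not tested. The median over all genes, -0.0037, became 0.45 when scaled on the 2000 most abundant genes and -0.10 with library size alone.

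In the subtype lists the 2 lower calls became 1 with DESeq2 size factors, library size alone or limma with either pseudocount, 8 with no filter, 4 with the replicate block and 5 with experiments 2 and 3 alone. They became 0 with the 2000 most abundant genes, a mean TPM of at least 5, drawn-down counts or background subtraction, and 0 to 4 with 1 library left out. The block changed no call of a marker.

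Over all genes, 1835 were called higher and 115 lower. Higher and lower calls were 2054 and 53 with library size alone, 2578 and 8 with the 2000 most abundant genes, 9382 and 1175 with no filter, 9 and 0 at a mean TPM of 5 or more, 5659 and 501 with DESeq2, 1112 and 434 with limma on log2(TPM + 1), 14 and 0 drawn down, 11 and 0 after background subtraction, and 2241 and 362 with the block. With 1 library left out they ranged from 0 to 1771 and from 0 to 48.

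Depth limits *Ackr1*, *Sele*, *Ly6c1*, *Emcn* and *Selp* in AAV-VEGF-C 1, each with 3 counts or fewer.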
